A study of Mus musculus with 32 samples.

Results

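Schwann cell and myelin genes were followed through mouse quadriceps muscle at 5 and 25 weeks of age, with and without the collagen VI gene Col6a2. The 7 genes were chosen by name (Pmp22, Mbp, Mag, Sox10, S100b, Gldn and Ngfr) among 53801 gene IDs, and each name matched 1 ID. Levels are given as TPM, the number of transcripts of a gene per 1000000 transcripts of the library after correction for length. Only 3 of the 7 genes (Pmp22, Mbp and S100b) reached 1 TPM in 4 or more of the 32 libraries, and the other 4 (Mag, Sox10, Gldn and Ngfr) did not.

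Each library came from 1 mouse, and each combination of genotype, age and sex held 4 mice, which gave 8 groups. The genotypes were wild type (WT) and Col6a2-/-, homozygous for the germline knockout allele Col6a2 tm1(KOMP)Vlcg. Per the labels, that allele came from a C57BL/6N strain, was backcrossed to C57BL/6J over 5 generations and was carried by heterozygous breeders, so every cell of a Col6a2-/- mouse lacked the gene. RNA was taken from cryosections of whole frozen quadriceps. Muscle fibres, intramuscular nerve, vessels and connective tissue were therefore measured together, and fewer cells of a type cannot be told apart from less RNA per cell.

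Schwann cells are the glia of peripheral nerve. They wrap motor and sensory axons in myelin under the control of the transcription factor Sox10, and their myelin genes are switched on by axonal signals and lowered when the axon is lost. Pmp22 encodes a membrane-spanning protein of compact myelin whose gene dosage underlies inherited neuropathies, and it is also expressed outside nerve. Mbp encodes the protein that joins the inner faces of the myelin membrane, and Mag an adhesion protein on the membrane next to the axon. S100b is a calcium-binding protein used as a Schwann cell marker. Gldn encodes gliomedin, which Schwann cells place at nodes of Ranvier, and Ngfr the p75 neurotrophin receptor, which is typical of immature, non-myelinating and injured Schwann cells.

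RefSeq windows on GRCm38.p6, which run from 250 bases before to 50 bases after a transcript start, were available for 5 of the 7 genes, 10 windows in all. They are shown because most pairs of the 7 genes were correlated between mice, as described below. Over both ages together, S100b, Gldn and Mag were the most tightly related and Pmp22 the least. For each of these genes the 250 bases before its outermost start among these windows are printed, 5′ to 3′. Capitals mark a match to the SOX motif ACAAAG, here on the opposite strand.
S100b, chr10:76253586-76253835, forward strand: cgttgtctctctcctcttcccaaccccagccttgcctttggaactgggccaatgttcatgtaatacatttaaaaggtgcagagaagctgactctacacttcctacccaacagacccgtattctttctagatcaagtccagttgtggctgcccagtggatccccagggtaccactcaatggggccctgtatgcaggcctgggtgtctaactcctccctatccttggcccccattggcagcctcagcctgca
Gldn, chr9:54286236-54286485, forward strand: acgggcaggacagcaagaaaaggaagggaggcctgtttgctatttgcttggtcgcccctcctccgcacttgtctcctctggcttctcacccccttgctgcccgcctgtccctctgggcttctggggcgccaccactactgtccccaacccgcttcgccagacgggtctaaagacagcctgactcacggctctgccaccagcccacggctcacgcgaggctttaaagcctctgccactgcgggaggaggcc
Mag, chr7:30914923-30915172, reverse strand: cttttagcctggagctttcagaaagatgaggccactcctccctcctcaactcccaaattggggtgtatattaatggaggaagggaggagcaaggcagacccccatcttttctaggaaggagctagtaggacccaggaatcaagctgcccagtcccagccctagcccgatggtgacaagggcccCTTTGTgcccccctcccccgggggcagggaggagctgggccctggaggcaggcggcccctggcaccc
Pmp22, chr11:63128732-63128981, forward strand: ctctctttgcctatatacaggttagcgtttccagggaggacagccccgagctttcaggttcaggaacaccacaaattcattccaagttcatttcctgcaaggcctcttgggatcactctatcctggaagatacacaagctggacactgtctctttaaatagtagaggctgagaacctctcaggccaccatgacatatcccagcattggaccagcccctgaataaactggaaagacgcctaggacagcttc
The windows were searched on both strands for the SOX motifs ACAAAG and ACAATG and for the EGR motifs GCGTGGGCG and GCGGGGGCG. ACAAAG occurred in 2 of the 10 windows, both of them overlapping windows of Mag, so this is 1 match. None of the other 3 motifs was found in the 10 windows. ACAAAG occurred in 18.7% of all 32851 windows of that length, ACAATG in 12.6%, GCGTGGGCG in 0.612% and GCGGGGGCG in 2.91%, so a match to ACAAAG is common.

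The libraries were checked before the genes were compared. Col6a2 had 6.60 to 51.2 TPM over the 16 WT libraries and at most 0.171 TPM in each of the 16 Col6a2-/- libraries, so the genotype labels matched. No pair of libraries held identical values, and correlations between libraries ran from 0.910 to 0.984. Mitochondrial genes took 31.9% to 46.9% of TPM and the Rn7s genes 20.8% to 30.5%. All 10 muscle fibre genes on a list of markers passed the TPM filter, with a summed level between 26340.5 and 46887 TPM. Of 12 axon genes 3 passed the filter, Mapt (median 4.73 TPM), Uchl1 (1.58) and Stmn2 (0.683), while the motor neuron genes Chat and Slc18a3 were listed at 0 in all 32 libraries and the neurofilament gene Nefl in 27. Of 8 genes of other lineages that use Sox10 or make myelin (oligodendrocytes, melanocytes), Mitf reached 4.73 TPM and passed the filter, and the other 7 lay at or below 0.293 TPM in every library, with Olig2 listed at 0 in all 32.

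Pmp22 (ENSMUSG00000018217, GRCm38 chr11:63128982-63159547) was the most abundant of the 7 in 32 of 32 libraries, with a median of 26.3 TPM and a range of 6.83 to 120.2. Mbp (ENSMUSG00000041607, chr18:82475146-82585637) was number 2 in every library, with a median of 2.16 TPM (0.865 to 7.35). S100b (ENSMUSG00000033208, chr10:76253853-76261159) was number 3 in every library, with a median of 1.18 TPM (0.333 to 3.19).

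The order of the other 4 was not fixed. Sox10 (ENSMUSG00000033006, chr15:79154908-79165240) had a median of 0.404 TPM (0.0615 to 0.905) and Mag (ENSMUSG00000036634, chr7:30899176-30914873) of 0.380 (0 to 1.22). Gldn (ENSMUSG00000046167, chr9:54286486-54341786) had a median of 0.259 TPM (0.0861 to 0.762) and Ngfr (ENSMUSG00000000120, chr11:95568818-95587735) of 0.215 (0.0459 to 1.20). Their ranges overlap, and neighbours in this order did not differ beyond their spread. Mag was number 4 in 15 libraries and last in 4, and Ngfr was last in 23.

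Mean read depth over a gene limits how precisely the low genes are known. The authors' coverage values had medians of 88.9 reads for Pmp22, 8.90 for S100b, 2.23 for Sox10, 2.10 for Mbp, 1.98 for Gldn, 1.76 for Ngfr and 1.16 for Mag. Coverage did not follow TPM alike in all genes. In WT 5-week female 1, S100b had 1.90 TPM and a coverage of 11.9, but Mbp 4.37 TPM and 3.11. These depths therefore do not rank the genes by precision. Mag was listed at 0 in 1 library, Col6a2-/- 25-week male 4. The S100b gene shares 1731 bases with Dip2a on the opposite strand (median 1.80 TPM), and Mbp contains the pseudogene Rpl21-ps8 on the opposite strand (median 5.69 TPM). Since the use of strand is not given in the sources used here, reads of such pairs cannot be told apart. Gldnos, antisense to Gldn, was listed at 0.

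**Figure D1:**
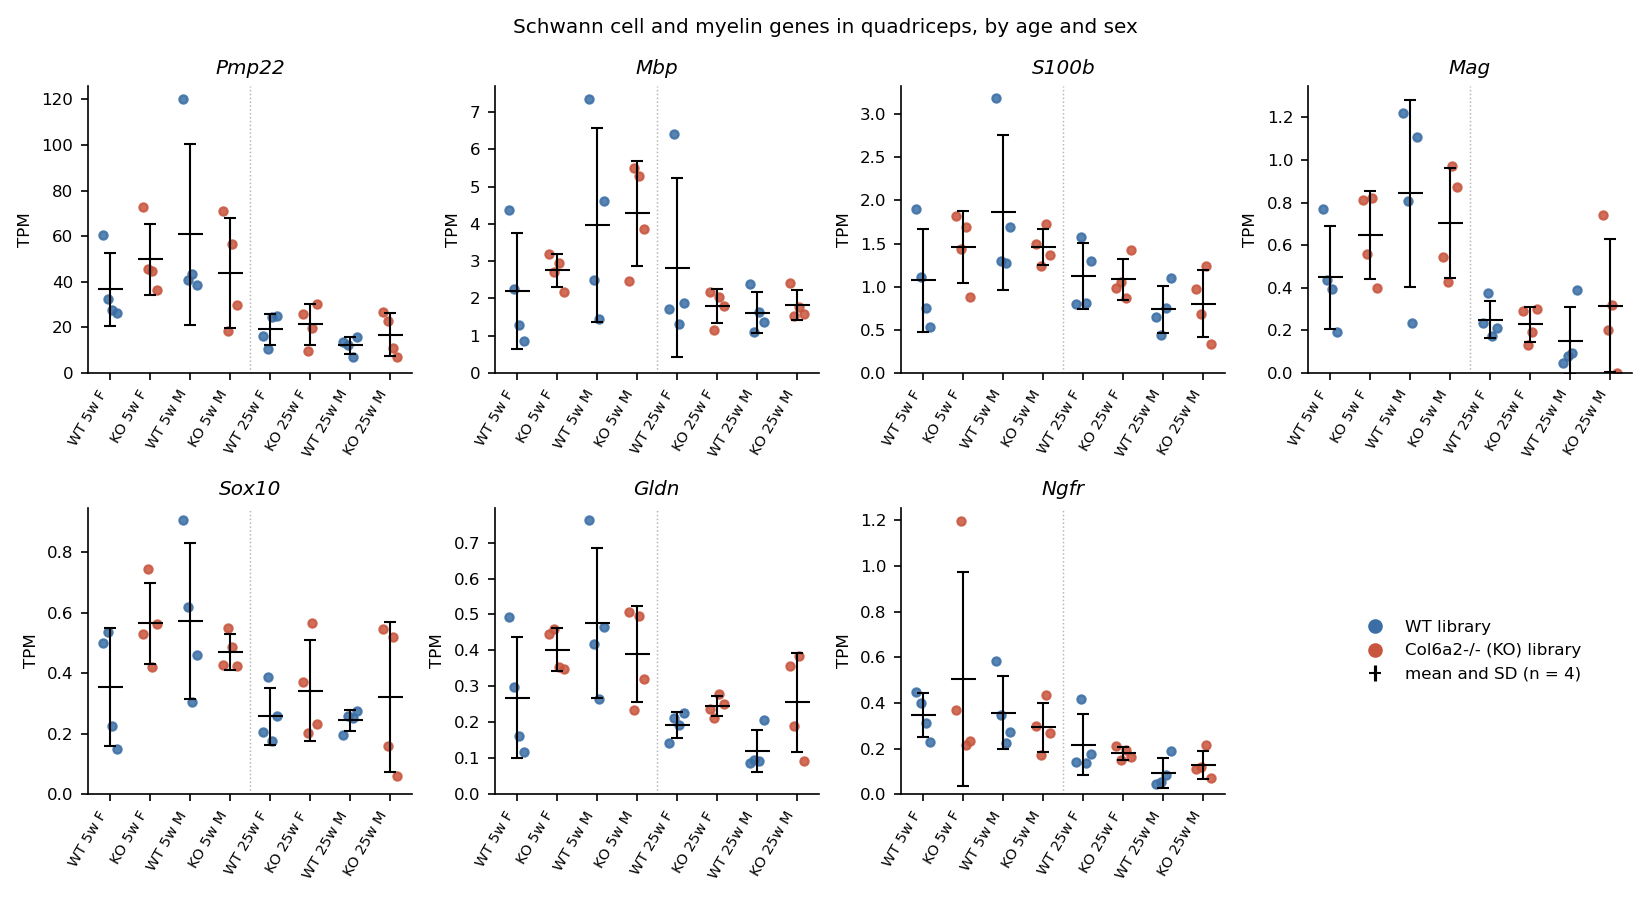
Level of each of the 7 genes in TPM (linear axes from 0, scaled per gene) in the 8 groups, with KO standing for Col6a2-/- and a dotted line between 5 and 25 weeks. Each point is 1 mouse, and bars give the mean and SD of 4 mice. Pmp22 in WT lay between 26.1 and 120.2 TPM at 5 weeks and between 6.99 and 25.1 at 25 weeks, with no overlap.

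With age, Pmp22 fell in both genotypes, and its mean at 5 weeks was 3.13 times that at 25 weeks in WT and 2.46 times in Col6a2-/-. WT females had 60.3, 32.5, 27.7 and 26.1 TPM at 5 weeks and 16.3, 10.4, 24.3 and 25.1 at 25 weeks. WT males had 120.2, 40.8, 43.2 and 38.7 TPM at 5 weeks and 13.4, 12.1, 6.99 and 15.9 at 25 weeks. The 8 WT mice of 25 weeks all lay below the 8 of 5 weeks. Col6a2-/- females had 72.6, 45.6, 44.7 and 36.3 TPM at 5 weeks and 25.6, 9.46, 19.7 and 30.2 at 25 weeks. Col6a2-/- males had 71.0, 18.5, 56.4 and 29.6 TPM at 5 weeks and 26.5, 22.9, 10.9 and 6.83 at 25 weeks. Here the ages overlapped, because males 2 and 4 of 5 weeks were within the range of the older mice, but 8 of 8 older mice were below the median of the younger ones.

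In WT the Pmp22 mean went from 48.7 ± 30.8 to 15.6 ± 6.39 TPM (SD, n = 8), a difference of -1.51 in log2(TPM + 1) (SE 0.307, limma with Benjamini-Hochberg adjustment over 12817 genes, adjusted p 0.000783). In Col6a2-/- it went from 46.8 ± 19.1 to 19.0 ± 8.83 TPM, a difference of -1.29 (SE 0.307, limma adjusted p 0.0018). Both differences exceeded the spread between mice. Of the 12817 genes, 2.3% showed this separation with the older WT mice below, as Pmp22 alone of the 7 members did, and 1.88% showed it in Col6a2-/-, where no member did. Median-of-ratios size factors, which bring the median change of all genes from -0.076 to 0.013 in WT and from -0.14 to 0.013 in Col6a2-/-, gave Pmp22 differences of -1.39 and -1.11, both still called.

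Mbp and S100b went the same way with smaller differences. Mbp in Col6a2-/- had 3.19, 2.71, 2.94 and 2.16 TPM in 5-week females and 2.47, 5.50, 5.29 and 3.87 in 5-week males. At 25 weeks it had 2.17, 1.14, 2.04 and 1.80 TPM in females and 2.40, 1.54, 1.77 and 1.59 in males. Of the 8 older mice, 6 were below every younger one. The mean went from 3.52 ± 1.27 to 1.81 ± 0.397 TPM (SD, n = 8), a log2(TPM + 1) difference of -0.65 (SE 0.233, limma adjusted p 0.0306). In WT, Mbp had 4.37, 2.26, 1.29 and 0.865 TPM in females and 7.35, 2.50, 1.44 and 4.61 in males at 5 weeks. At 25 weeks it had 1.72, 6.41, 1.31 and 1.87 TPM in females and 2.37, 1.08, 1.64 and 1.38 in males. Female 2 of 25 weeks was thus above 7 of the 8 younger mice, and the difference of -0.29 was not called (SE 0.233, limma adjusted p 0.417). When 1 library was left out, that difference ran from -0.48 to -0.14 (limma adjusted p from 0.118 to 0.731).

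S100b had a mean of 1.46 ± 0.304 TPM in 5-week and 0.944 ± 0.333 in 25-week Col6a2-/- mice (SD, n = 8). The lowest, median and highest mouse had 0.885, 1.47 and 1.82 TPM at 5 weeks and 0.333, 0.979 and 1.42 at 25 weeks, so the ages overlapped, with 8 of 8 older mice below the younger median. The difference was -0.35 (SE 0.137, limma adjusted p 0.0479). In WT the corresponding levels were 0.536, 1.29 and 3.19 TPM at 5 weeks and 0.442, 0.803 and 1.58 at 25 weeks. There the difference of -0.32 was not called (SE 0.137, limma adjusted p 0.106).

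In all, 1 of the 3 testable members was called lower with age in WT, where 15.3% of all genes were lower and 19.8% changed either way. In Col6a2-/- it was 3 of 3, where 28.8% were lower and 34.2% changed. The calls of Mbp and S100b in Col6a2-/- rest on the scaling and on the filter. With size factors their differences were -0.51 and -0.24 with limma adjusted p of 0.0899 and 0.156, and with no filter the adjusted p rose to 0.0694 and 0.0944. Leaving out 1 library ended the Mbp call in 6 of 32 fits (Col6a2-/- 5-week female 1 and males 2 and 3, 25-week female 2 and males 2 and 4), with a limma adjusted p of at most 0.0666, and the S100b call in 17 of 32, with at most 0.123.

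The 4 low members could be tested only without the TPM filter, over 32958 genes. On the log2(TPM + 1) scale changes of genes this low are compressed, so a second fit used log2(TPM + 0.1) over 20988 genes that reached 0.1 TPM in 4 or more libraries; it was added after these genes were seen to lie under the filter. All 7 members had negative age differences in both genotypes in both fits. Without a filter 3 of 7 were called in WT (7.79% of all genes) and 3 of 7 in Col6a2-/- (16.8%). In the fit at 0.1 TPM it was 4 of 7 in each, against 16.2% and 26% of all genes. The median difference of the 7 members in that fit was -0.79 in WT and -0.82 in Col6a2-/-, and that of all genes -0.11 and -0.18.

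Mag showed the largest differences among these 4. WT mice of 5 weeks had 0.772, 0.436, 0.395 and 0.190 TPM (females) and 1.22, 0.807, 0.236 and 1.11 (males). At 25 weeks they had 0.235, 0.374, 0.175 and 0.211 TPM (females) and 0.0438, 0.0808, 0.0947 and 0.387 (males), so that all 8 lay below the younger median. Col6a2-/- mice had 0.812, 0.560, 0.820 and 0.397 TPM (females) and 0.543, 0.428, 0.972 and 0.874 (males) at 5 weeks. At 25 weeks they had 0.289, 0.130, 0.193 and 0.302 TPM (females) and 0.742, 0.200, 0.320 and 0 (males). Of these older mice, 7 were below every younger one and only male 1 was not.

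The Mag mean went from 0.646 ± 0.391 to 0.200 ± 0.129 TPM with age in WT (SD, n = 8). In Col6a2-/- it went from 0.676 ± 0.219 to 0.272 ± 0.217 TPM. The log2(TPM + 1) differences were -0.43 in WT (SE 0.116, limma adjusted p 0.0214) and -0.40 in Col6a2-/- (SE 0.116, limma adjusted p 0.0166), and -1.24 and -1.22 at log2(TPM + 0.1). Without WT 5-week female 1 or male 1 the WT call ended (limma adjusted p 0.0534 and 0.0571), and quantile normalization ended that in Col6a2-/- (limma adjusted p 0.0737).

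Gldn, the node protein, had 0.119, 0.358 and 0.762 TPM in the lowest, median and highest WT mouse of 5 weeks and 0.0861, 0.168 and 0.226 at 25 weeks. Its log2(TPM + 1) difference in WT was -0.24 (SE 0.0632, limma adjusted p 0.0198), which ended without WT 5-week male 1 (limma adjusted p 0.0529). In Col6a2-/- the values were 0.235, 0.400 and 0.506 TPM at 5 weeks and 0.0934, 0.244 and 0.384 at 25 weeks, and the difference of -0.16 was not called (limma adjusted p 0.0886).

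Ngfr, the receptor, had 0.225, 0.329 and 0.585 TPM in WT at 5 weeks and 0.0459, 0.139 and 0.419 at 25 weeks, with 7 of 8 older mice below every younger one. In Col6a2-/- it had 0.171, 0.284 and 1.20 TPM, then 0.0711, 0.156 and 0.214. Its log2(TPM + 1) differences were -0.23 in WT (limma adjusted p 0.120) and -0.25 in Col6a2-/- (limma adjusted p 0.0477). Both results depend on the setting: the WT difference was called with size factors, quantile normalization and array weights (limma adjusted p 0.0256, 0.0362 and 0.00794), and that in Col6a2-/- was not called with quantile normalization and array weights (limma adjusted p 0.102 and 0.131). At log2(TPM + 0.1) they were -0.89 and -0.82, both called (limma adjusted p 0.0117 and 0.014). The Col6a2-/- call without the filter ended in 25 of 32 fits that left out 1 library. Without Col6a2-/- 5-week female 2, the mouse with 1.20 TPM, the Col6a2-/- difference was -0.15 (limma adjusted p 0.0838). In that same fit the WT difference, unchanged at -0.23, was called (limma adjusted p 0.00724).

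Sox10, the lineage regulator, was called in neither genotype in either fit. It had 0.150, 0.480 and 0.905 TPM in WT at 5 weeks and 0.176, 0.254 and 0.387 at 25 weeks. In Col6a2-/- it had 0.420, 0.508 and 0.744 TPM, then 0.0615, 0.301 and 0.565. The log2(TPM + 0.1) differences were -0.58 in WT (limma adjusted p 0.125) and -0.65 in Col6a2-/- (limma adjusted p 0.0604).

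**Figure D2:**
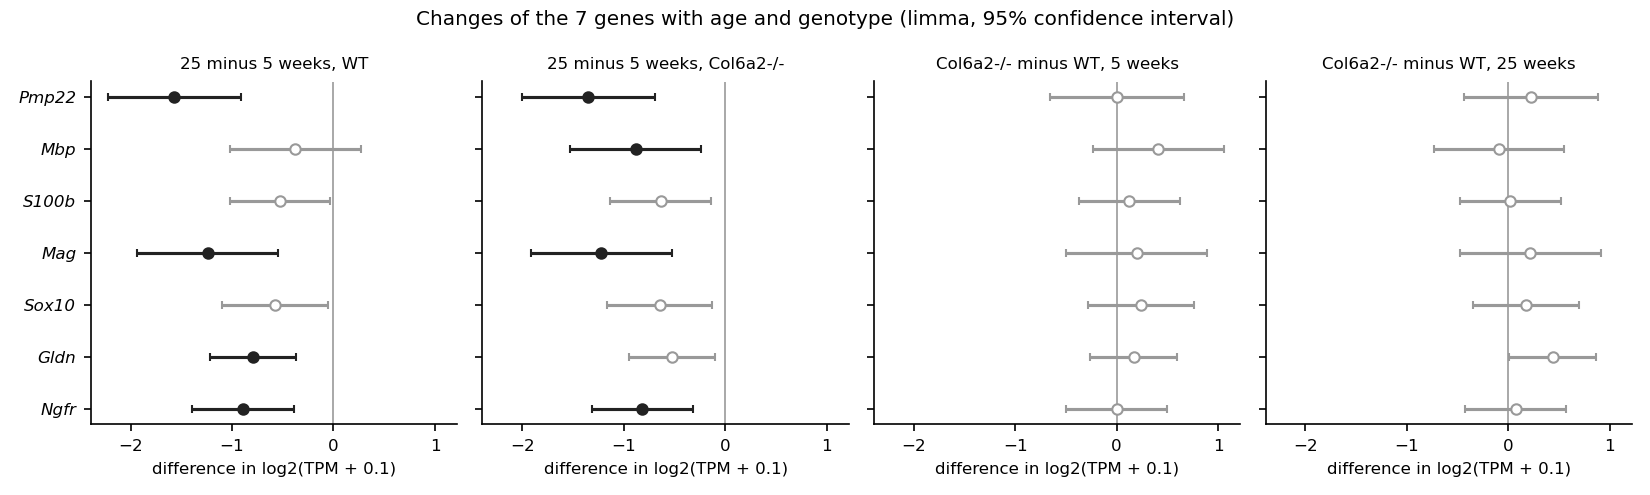
Differences in log2(TPM + 0.1) with 95% confidence intervals for the 7 genes (1 line each) with age in each genotype and with genotype at each age, from the limma fit over 20988 genes. Filled black points have an adjusted p under 0.05 and open grey points do not. All 7 age differences lie below 0 in both genotypes, with 4 of 7 called in each, and no genotype difference is called.

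Knockout of Col6a2 was not accompanied by a called change of any of the 7 genes at either age. At 5 weeks limma called 0 of the 3 testable members while 25.4% of all genes were called, and at 25 weeks 0 of 3 against 4.7%. No member had an unadjusted p under 0.05 in these tests, nor without the filter, where 0 of 7 were called at each age (11.2% and 1.04% of all genes). In the fit at 0.1 TPM again 0 of 7 were called at each age (17.5% and 4.37%), and 1 member, Gldn at 25 weeks, had an unadjusted p under 0.05.

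The 95% intervals of the genotype differences were as follows. For Pmp22 at 5 weeks the Col6a2-/- minus WT difference was 0.0020 in log2(TPM + 1), with a 95% interval from -0.63 to 0.63. At 25 weeks it was 0.22 (-0.41 to 0.84). For Mbp it was 0.27 (-0.21 to 0.75) at 5 weeks and -0.09 (-0.57 to 0.39) at 25 weeks. S100b had the narrowest intervals of the 3, 0.05 (-0.23 to 0.33) and 0.01 (-0.27 to 0.29). The signs of the small differences depend on the scaling: with size factors those of Pmp22, S100b, Mag, Gldn and Ngfr at 5 weeks were all below 0, the largest in size being -0.20 for Pmp22, and none was called.

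Among the low members Gldn came nearest to a difference. At 25 weeks WT mice had a mean of 0.157 ± 0.0595 TPM and Col6a2-/- mice of 0.250 ± 0.0924 (SD, n = 8), and 7 of 8 Col6a2-/- mice were above the WT median. The log2(TPM + 0.1) difference was 0.44 (95% interval 0.0095 to 0.86, limma adjusted p 0.255), which is not called. The remaining log2(TPM + 0.1) differences of Mag, Sox10 and Ngfr at the 2 ages lay between -0.0013 and 0.24, none called.

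The test of whether the genotype difference itself changed with age called 0 of the 3 members (0.492% of all genes) and 0 of 7 without the filter (0.349%), with no unadjusted p under 0.05. For Pmp22 that interaction was 0.21 (95% interval -0.67 to 1.10) and for Mbp -0.36 (-1.03 to 0.31). A call in one genotype and not in the other, as for Mbp and Gldn, is thus not shown to be a difference between genotypes. Sex gave 0 of 3 calls (3.05% of all genes) and genotype by sex 0 of 3 (0.0156%), again with no unadjusted p under 0.05. The male minus female differences were -0.17 for Pmp22, 0.17 for Mbp and -0.01 for S100b in log2(TPM + 1).

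Between mice of the same group, 2 of the 3 pairs of abundant members were correlated. After the 8 group means were removed from log2(TPM + 1), Mbp and S100b were correlated over the 32 libraries (Pearson r 0.69, Spearman rho 0.60, permutation p 0.00029 and 0.00175, adjusted over 3 pairs 0.00087 and 0.00525). Pmp22 and S100b gave r 0.52 and rho 0.43 (permutation p 0.00796 and 0.0319, adjusted 0.0119 and 0.0478). Pmp22 and Mbp gave r 0.18 and rho 0.14 (permutation p 0.395 and 0.486, adjusted over the 3 pairs to the same values). Without the 2 libraries farthest from the median of the first gene, r was 0.60, 0.44 and 0.13. Without WT 5-week male 1 alone, 1 of the 3 pairs had an adjusted permutation p under 0.05 in place of 2.

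Over all 21 pairs at log2(TPM + 0.1), a set added after the low members were seen, every r was above 0, with a median of 0.58. A positive r is also the usual case in these libraries: at log2(TPM + 1) the median r with all tested genes was 0.22 for Pmp22, 0.21 for S100b and 0.11 for Mbp. Pmp22 with Mbp, at 0.18, thus lay below the Pmp22 median and above the Mbp median. An adjusted permutation p under 0.05 was found for 18 pairs by Pearson's r. S100b and Gldn were closest (r 0.84, rho 0.80, both with a permutation p of 1e-05, the smallest that 100000 resamples can give, adjusted 0.000105 and 0.00014; r 0.78 without the 2 farthest libraries). Mag with Gldn gave r 0.79 (rho 0.71, permutation p 5e-05 and 0.00037, adjusted 0.00021 and 0.00155; r 0.74 without the 2 farthest). Mag with S100b gave r 0.77 (rho 0.76, permutation p 4e-05 and 2e-05, adjusted 0.00021 and 0.00014; r 0.74 without the 2 farthest).

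Over both ages together, Pmp22 was the least tied to the rest. At 5 weeks alone its r ran from 0.40 (Sox10) to 0.83 (Gldn), and the lowest r of the 21 pairs was that of Mbp with Ngfr, 0.38. By Pearson's r, all 15 pairs of the other 6 genes had an adjusted permutation p under 0.05, with r from 0.44 to 0.84, and 3 of the 6 pairs with Pmp22 did, with r from 0.19 to 0.65. By Spearman's rho the adjusted permutation p was 0.0735 for Pmp22 with Mag, 0.0567 for Mbp with Gldn and 0.0596 for Mbp with Ngfr. Within the 16 libraries of 5 weeks 13 of 21 pairs passed, with a median r of 0.66, and within the 16 of 25 weeks 10 of 21, with a median r of 0.54 and a range from -0.089 to 0.86. For the 3 abundant members at 25 weeks alone, 0 pairs passed. All these values share the library total in their TPM scale.

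**Figure D3:**
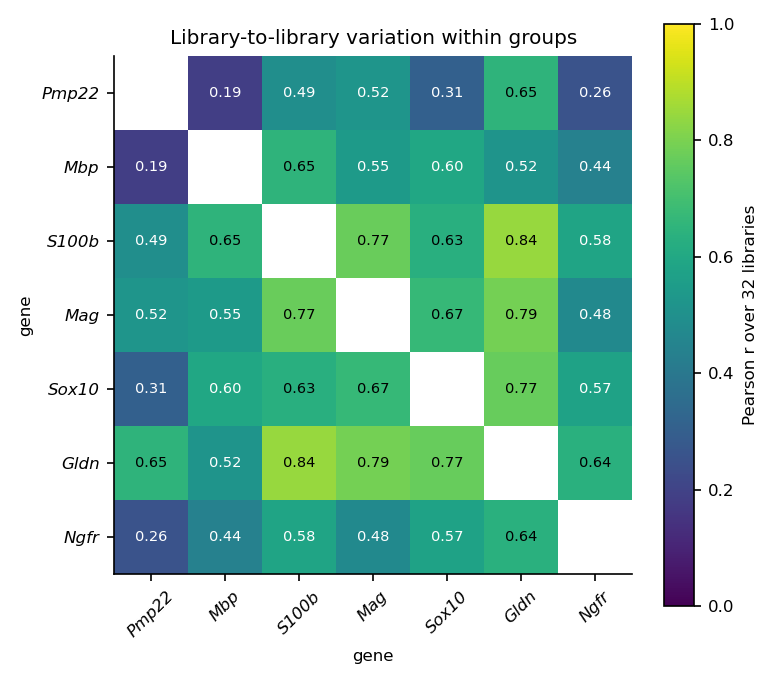
Pearson r between the 7 genes over 32 libraries, after the mean of each of the 8 groups was taken out of log2(TPM + 0.1). The colour scale runs from 0 to 1. S100b with Gldn has the highest r, 0.84, and Pmp22 with Mbp the lowest, 0.19.

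The extremes were shared as well. WT 5-week male 1 was the highest library for 6 of the 7 genes, with 120.2 TPM of Pmp22 (next 72.6) and 3.19 of S100b (next 1.90). Ngfr was the exception, with 0.585 TPM there and 1.20 in Col6a2-/- 5-week female 2. Col6a2-/- 25-week male 4 was the lowest for Pmp22, Mag, Sox10 and S100b. Leaving out WT 5-week male 1 gave a Pmp22 difference with age in WT of -1.32 (limma adjusted p 0.00272).

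Likeness over the whole table was measured as Pearson r of log2(TPM + 1) over 32 libraries with group means removed, and is given as a description. Among the genes most like S100b were Ugt8a (0.85), which makes the myelin lipid galactosylceramide, and Prx (0.85), which encodes periaxin. Mbp was most like Spp1 (0.80), which encodes osteopontin, Asb18 (0.74) and Ugt8a (0.70). Pmp22 was most like Gas2l3 (0.84), Gm42672 (0.73) and C1qtnf7 (0.71). Of 12 tested genes of a list of other Schwann cell myelin genes, 9 were among the 100 genes most like S100b, 9 among those most like Mbp and 4 among those most like Pmp22. None of 10 fibroblast genes was among them for any of the 3.

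The other myelin genes gave the wider picture of the age difference. Of 16 on the list, 12 passed the filter. At 25 weeks 10 of these were lower in WT, where 15.3% of all genes were, and 12 in Col6a2-/-, where 28.8% were. None was higher. But 5 of the 12 (Pmp2, Cadm4, Ncmap, Ugt8a and Mpzl1) passed the filter only through libraries of 5 weeks, so the filter itself favours a fall in them, and their values are a description. The other 7 reached 1 TPM in 4 or more libraries of 25 weeks alone, and of these 6 were lower in WT and 7 in Col6a2-/-, with a median change of -0.55 and -0.60, against -0.076 and -0.14 for all genes. Cnp, an enzyme of non-compact myelin, had 4.02 ± 1.24 TPM in younger and 2.43 ± 0.512 in older WT mice (SD, n = 8), a difference of -0.53 (SE 0.119, limma adjusted p 0.00209), and -0.55 in Col6a2-/- (limma adjusted p 0.000816). Prx, the gene of periaxin, fell by 0.72 in WT (limma adjusted p 0.0107) and by 0.69 in Col6a2-/- (limma adjusted p 0.00819). Pmp2, a fatty acid-binding protein of myelin, had a mean of 3.01 TPM in younger and 0.206 in older WT mice, and 1.47 and 0.0513 in Col6a2-/-. With other scalings 9 to 10 of the 12 were lower in WT and 10 to 11 in Col6a2-/-, and when single libraries were left out 10 to 11 and 11 to 12.

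Of 11 tested signals between axon and Schwann cell and their receptors, 5 were lower with age in WT and 6 in Col6a2-/-, and none was higher. Over all genes 15.3% were lower in WT and 28.8% in Col6a2-/-. The median change of the 11 was -0.24 in WT and -0.39 in Col6a2-/-, against -0.076 and -0.14 for all genes. Of the 11, 2 passed the filter only through 5-week libraries. Lama2, a laminin chain of the basement membrane of both nerve and muscle, fell by 0.73 in WT (limma adjusted p 0.000704) and by 0.84 in Col6a2-/- (limma adjusted p 7.29e-05). Lgi4, a secreted Schwann cell factor needed for myelination, fell by 0.38 in WT (limma adjusted p 0.0175) and by 0.55 in Col6a2-/- (limma adjusted p 0.000544). The laminin receptors Itga6 and Dag1 fell by 0.62 and 0.42 in WT and by 0.61 and 0.52 in Col6a2-/-, and Cdc42, a small GTPase, fell by 0.26 and 0.45. Both Lama2 and Dag1 are also muscle fibre genes, so their values are not those of nerve alone. Itga6 and Cdc42, with means of 9.99 and 71.4 TPM against 1.60 for Lgi4, cannot be assigned to nerve in whole muscle either.

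Of 12 regulators of the lineage, 4 passed the filter, Nab1, Nab2, Yy1 and Zeb2. The other 8 lay under it, so the count does not cover them. By limma 0 of the 4 were called with age in either genotype, where 19.8% of all genes were called in WT and 34.2% in Col6a2-/-. Of the 4, 1 in WT and 2 in Col6a2-/- had an unadjusted p under 0.05, and with size factors 1 was lower in WT. Egr2, the main activator of myelin genes beside Sox10, lay under the filter with a median of 0.356 TPM. Of 4 tested node genes, Dlg1, a scaffold protein, was higher with age in both genotypes (0.33 and 0.34), while Ank3 fell by 0.23 in Col6a2-/-. Kcna1 was also called lower there (-0.34), but passed the filter only through 5-week libraries. With quantile normalization neither fall was called. Of 5 tested perineurial genes limma called 0 with age, with 1 in WT and 2 in Col6a2-/- at an unadjusted p under 0.05; quantile normalization called 1 higher in Col6a2-/- and the replicate block 1 lower in WT.

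Genes of other cell types were called with age too, where 28.8% of all genes were lower in Col6a2-/- and 15.3% in WT, with median changes of -0.14 and -0.076. In Col6a2-/- 10 of 10 macrophage genes were lower (median change -0.71), 10 of 11 denervation genes (-1.25), 6 of 10 endothelial genes (-0.31) and 4 of 10 mural genes (-0.15, near that of all genes). Of these, 1 macrophage and 2 denervation genes passed the filter only through 5-week libraries, and without them 9 of 9 and 8 of 9 were lower. In WT it was 1 of 10 macrophage genes (-0.27), 4 of 11 denervation genes with 1 higher (-0.38), 3 of 10 endothelial genes (-0.23) and 4 of 10 mural genes (-0.17). When 1 library was left out the WT counts ran from 1 to 4 for macrophage, 3 to 4 for denervation, 1 to 5 for endothelial and 1 to 4 for mural genes, and those in Col6a2-/- were 10, 8 to 10, 5 to 8 and 3 to 5. The difference between genotypes in these counts was not tested. The endothelial counts were 1 and 4 with size factors in WT and Col6a2-/-, and the mural counts 2 and 1, with 1 mural gene higher in each. Of the axon genes Stmn2, which passed the filter only through 25-week libraries, was higher with age in both genotypes (0.24 and 0.36), and Uchl1 fell by 0.89 in Col6a2-/-. Mitf was also higher in both (0.33 and 0.24). Of 10 adipocyte genes 1 was higher in each genotype, with 0 to 1 when a library was left out, as for Mitf in Col6a2-/-, and the 1 tested lymphocyte gene was lower in Col6a2-/-. Summed over 10 fibroblast genes, the level had a median of 1365 TPM (1116 to 2347) in WT at 5 weeks and 741 (455 to 891) at 25 weeks, and in Col6a2-/- it had 1857 (922 to 2872) and 983 (894 to 1371). Of those 10 genes 5 were lower with age in each genotype, and 1 was higher in Col6a2-/-. The 10 muscle fibre genes summed to 42052 and 34142 TPM in WT and to 34592 and 29130 in Col6a2-/- (medians). The 16 myelin genes summed to 49.9 TPM (23.9 to 122) and 23.4 (15.2 to 33.4) in WT, and to 60.8 (40.01 to 72.2) and 28.9 (18.5 to 43.7) in Col6a2-/-. Relative depth, read from coverage divided by FPKM, had medians of 11.1 and 7.58 in WT and 8.95 and 8.44 in Col6a2-/-. The part of these differences in the fall of the 7 genes was not tested.

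Between genotypes, of the 12 myelin genes only Cd9, a tetraspanin found in many cell types, was higher in Col6a2-/-, by 0.57 at 5 weeks (SE 0.129, limma adjusted p 0.00199) and 0.65 at 25 weeks (SE 0.129, limma adjusted p 0.00361), with none lower. The median change of the 12 was -0.03 at 5 weeks, against 0.15 for all genes, and 0.02 at 25 weeks, against 0.082.

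Denervation genes, which muscle fibres raise when they lose nerve contact or regenerate, were mostly higher at 5 weeks. In Col6a2-/- 10 of 11 tested were called higher, where 25.4% of all genes were called in either direction. The median change of the 11 was 1.28, against 0.15 for all genes, and the count was also 10 under each of 3 other scalings. Of these, 3 (Chrng, Chrnd and Runx1) passed the filter only through Col6a2-/- libraries, so they had to be higher there and are given as a description. Of the other 8, 7 were higher, with a median change of 0.97. Chrng, the fetal acetylcholine receptor subunit, had 0.0538 ± 0.0741 TPM in WT but 1.96 ± 0.573 in Col6a2-/- (SD, n = 8). At 25 weeks 1 of 11 was called higher, Runx1, where 4.7% of all genes were called. The interaction of genotype with age was called for 5 of the 11, all negative, and for 0.492% of all genes. Chrng and Chrnd are 2 of these, and since they passed the filter only through 5-week Col6a2-/- libraries, the filter favours such a value in them. The other 3 are Musk, Myog and Gadd45a.

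Genes of immature and non-myelinating Schwann cells were mostly too low to test, with 11 of 16 under the filter. Of the 5 tested, 2 were higher in Col6a2-/- at 5 weeks, where 25.4% of all genes were called in either direction. At 25 weeks limma called 0 (4.7% of all genes), with 3 at an unadjusted p under 0.05 and 1 called with size factors. Ncam1, an adhesion gene that denervated fibres also express and that stands in both lists, rose by 1.28 (SE 0.168, limma adjusted p 2.72e-06), and Scn7a, a sodium channel gene, by 0.41 (limma adjusted p 0.00688). Uchl1, which is expressed in neurons and was 1 of 3 tested axon genes, rose by 1.41 (SE 0.167, limma adjusted p 6.16e-07). The other 2 were not called, and 9 of the 12 axon genes lay under the filter, so the Uchl1 rise cannot be assigned to axons. Among the 11 tested signals 3 were higher at 5 weeks, Cdc42 (0.29), Erbb3 (0.26), the Schwann cell neuregulin receptor, and Lgi4 (0.33). That count is near the 25.4% of all genes called. When 1 library was left out, 0 to 5 signals were higher and 0 to 1 lower. With size factors, under which the median change of all genes goes from 0.15 to -0.01, 0 of the 11 signals were higher and 1 was lower, so these 3 calls depend on the scaling. The same holds for the regulator Zeb2 (0.48, limma adjusted p 0.0397), since with size factors no regulator was called. The number of regulators called higher ran from 0 to 3 when 1 library was left out. The perineurial gene Klf5 was higher by 0.34 (limma adjusted p 0.0253), but passed the filter only through Col6a2-/- libraries, and the number of perineurial genes called higher ran from 0 to 2 when 1 library was left out.

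Beside this genotype contrast, all 10 macrophage genes were higher in Col6a2-/- at 5 weeks and 8 of 10 at 25 weeks, and without the 1 that passed the filter only through Col6a2-/- libraries it was 9 and 8 of 9. Their summed level had medians of 78.0 and 281 TPM at 5 weeks and 74.5 and 148 at 25 weeks in WT and Col6a2-/-. Of 10 fibroblast genes 5 and 6 were higher. Of 10 endothelial genes 6 were higher at 5 weeks (4 to 7 when 1 library was left out) and of 10 mural genes 2 (1 to 2). Of 10 adipocyte genes limma called 0 at each age, with 0 and 1 at an unadjusted p under 0.05. Over all genes 25.4% were called in either direction at 5 weeks and 4.7% at 25 weeks, so the mural count was near that share. The 1 tested lymphocyte gene of 10 was higher at both ages. Of 10 muscle fibre genes 5 were lower at 5 weeks, 3 to 6 when 1 library was left out, and at 25 weeks limma called 0, with 5 at an unadjusted p under 0.05. How far these differences enter the levels of the 7 genes was not tested.

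**Figure D4:**
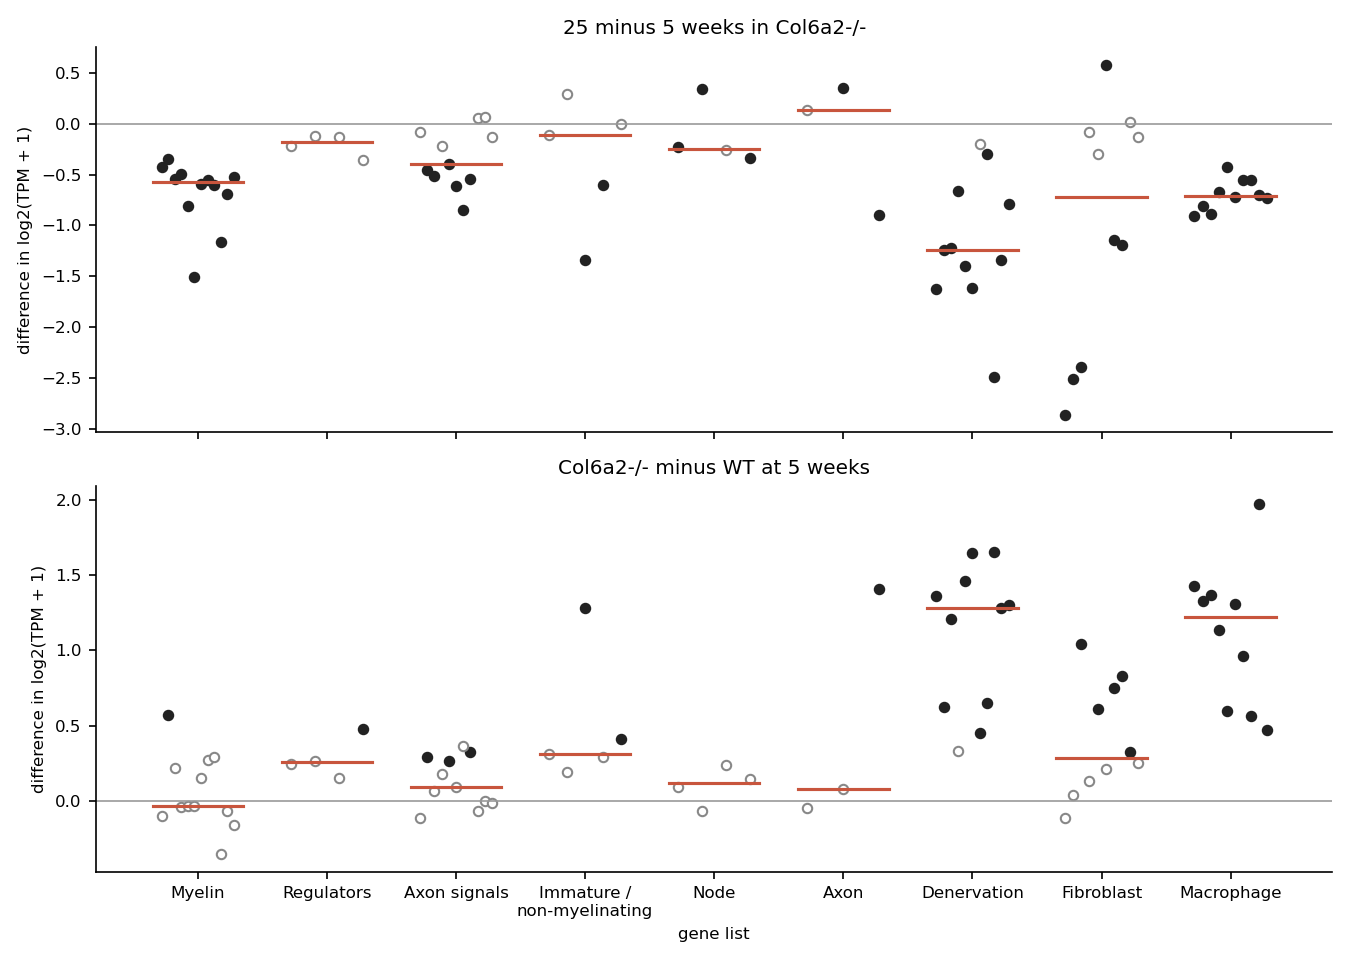
Differences in log2(TPM + 1) of single genes in 9 gene lists, 25 minus 5 weeks in Col6a2-/- (top) and Col6a2-/- minus WT at 5 weeks (bottom). Filled points have an adjusted p under 0.05, open points do not, and red bars are list medians over the tested genes. All 12 myelin genes are filled and below 0 with age, 5 of which passed the filter only through 5-week libraries, while 1 of 12 is filled between genotypes, where 10 of 11 denervation genes are filled and above 0, 3 of which passed the filter only through Col6a2-/- libraries.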

How the data were processed

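One table per mouse was deposited, 32 in all, and each mouse was 1 replicate. A TruSeq RNA kit and paired-end sequencing were used, per the labels' protocols, and the submitters' processing notes name FastQC, MultiQC, Trimmomatic, HISAT2, SAMtools and StringTie and the builds GRCm38 and mm10. Which annotation was used, and whether strand was, is not given in the sources used here. The TPM values, scaled for transcript length and to a sum of 1000000 per library, were computed by the authors. The FPKM values were also computed by the authors, and coverage stands for mean depth of reads on each gene, per the file headers. Coverage and FPKM served only for depth: their ratio, shared by many genes of a library, ran from 6.78 to 13.7 and is read as relative. Read counts were not used, so the branch of the design for normalised values was followed.

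TPM was summed per gene ID. The 12817 genes that reached 1 TPM in 4 or more libraries were fitted as log2(TPM + 1) with limma 3.58.1 in R 4.3.3 (lmFit, eBayes with trend), with 1 mean for each of the 8 groups, and 7 two-sided comparisons weighted the sexes equally. P-values were adjusted by Benjamini-Hochberg over all tested genes, and "called" means an adjusted p under 0.05. Relations used 100000 permutations within groups (Python 3.11.15, numpy 2.4.6, scipy 1.17.1). The fit and the relations were tested on simulated data. The alternatives covered the filter, pseudocount, scaling, array weights, a replicate block and each library left out. All 7 members are named, plus from each of the other 16 lists up to 3 called genes per direction by adjusted p, and for likeness the 3 genes with the highest r, except that some genes that this rule selects are not reported here; further genes of the myelin list, and markers given as levels, were named after their values were seen. The members, lists and tests were chosen with earlier results of these data known.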

Additional observations from a re-analysis of the deposited data

Results flagged for a closer look

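In 6 of the 56 combinations of gene and group, 1 of the 4 mice lay far from the other 3 relative to the group's range. For normally distributed values chance gives about 1 in 20. The values here are untransformed TPM, and the combinations share mice and correlated genes, so that rate need not hold. Pmp22 had 120.2 TPM in WT 5-week male 1, with the next mouse at 43.2. Mbp had 6.41 TPM in WT 25-week female 2, with the next at 1.87, and the same mouse had 0.419 TPM of Ngfr, with the next at 0.176. WT 25-week male 4 was high for Mag (0.387 TPM, next 0.0947) and for Gldn (0.206 TPM, next 0.0947). Ngfr had 1.20 TPM in Col6a2-/- 5-week female 2, with the next at 0.369. In each of the 6 the distant mouse was the highest of its group.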

How the results depend on the processing

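Levels are relative within a library. The 4 low genes have median read depths of 1.16 to 2.23, which limits their precision. Mbp has one of 2.10, but coverage did not follow TPM alike in all genes, so depths are not compared between genes. The fit at 0.1 TPM, the 21 pairs, the ages taken alone the scalings of the gene lists and the check of how listed genes passed the filter were added after the data were seen. The replicate numbers are not said to pair mice. Same-numbered mice of different groups of an age had correlations of deviations from -0.204 to 0.270, over 0.1 in 15 of 48 pairs. Of 48, 17 matched best with their own number, from 0 to 4 of 4 by pair of groups. These values do not settle whether they share more than a number, and the main fit treated the mice as unpaired. With a replicate block, members called stayed at 0, 0, 0, 1, 3, 0 and 0 over genotype at 5 and 25 weeks, genotype by age, age in WT, age in Col6a2-/-, sex and genotype by sex, all genes called were 3241, 642, 65, 2580, 4354, 391 and 2, and the Ngfr fall in Col6a2-/- had a limma adjusted p of 0.0562.

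The members called with age in WT went from 1 to 3 without a filter and to 4 at 0.1 TPM with a pseudocount of 0.1. With age in Col6a2-/- they went from 3 to 1 with size factors, with rescaling without mitochondrial and Rn7s genes and with quantile normalization. Over all 12817 genes these 3 settings called 4452, 3328 and 4514, so 1 of 3 members was near the share of all genes. Leaving out single libraries gave 1 to 3 members called for age in Col6a2-/-, 1 for age in WT and 0 for the other comparisons. All genes called with age in those fits were 3464 to 5506 in Col6a2-/- and 2114 to 3004 in WT. The pairs with an adjusted p under 0.05 among the 3 abundant members were 1 to 2, and 0 at 25 weeks alone. Pmp22 kept its call with age under all settings run, with differences from -1.58 to -1.32 in WT and -1.46 to -1.11 in Col6a2-/-. No age difference of a member changed sign.

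None of the differences that changed sign had been called. With size factors the differences that turned sign were for genotype at 5 weeks Pmp22 -0.20, Mag -0.019, S100b -0.065, Gldn -0.017 and Ngfr -0.040; for genotype at 25 weeks S100b -0.051 and Ngfr -0.010; for genotype by age S100b 0.015 and Ngfr 0.031. With quantile normalization the differences that turned sign were for genotype at 5 weeks Pmp22 -0.12, Mag -0.066, Sox10 -0.034, S100b -0.12, Gldn -0.051 and Ngfr -0.077; for genotype at 25 weeks S100b -0.10 and Ngfr -0.034; for genotype by age S100b 0.022 and Ngfr 0.043. With rescaling the differences that turned sign were for genotype at 5 weeks Pmp22 -0.0049; for genotype at 25 weeks S100b -0.028; for genotype by age Sox10 -0.017; for sex S100b 0.0089; for genotype by sex Mag 0.035. With array weights the differences that turned sign were for genotype at 5 weeks Ngfr -0.044; for genotype by age Pmp22 -0.0020, Mag -0.014 and Ngfr 0.061; for genotype by sex Ngfr 0.019. With a pseudocount of 0.1 the differences that turned sign were for genotype at 5 weeks Ngfr -0.0013; for genotype by age Sox10 -0.066 and Ngfr 0.074, the same at 0.1 TPM. Leaving out single libraries turned the sign within these ranges: for genotype at 5 weeks Pmp22 -0.14 to 0.19, Mag -0.039 to 0.10, S100b -0.018 to 0.15, Gldn -0.00073 to 0.079 and Ngfr -0.074 to 0.069; for genotype at 25 weeks Mbp -0.18 to 0.10, S100b -0.042 to 0.082 and Ngfr -0.015 to 0.040; for genotype by age Mag -0.049 to 0.11, Sox10 -0.036 to 0.062, S100b -0.13 to 0.035 and Ngfr -0.066 to 0.076; for sex Sox10 -0.0039 to 0.045 and S100b -0.060 to 0.033; for genotype by sex Mbp -0.046 to 0.29, Mag -0.13 to 0.018 and Ngfr -0.093 to 0.049.

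Over all genes, limma called 3253, 603, 63, 2536, 4389, 391 and 2 in the same order of comparisons. A minimum of 5 TPM gave 1553 for genotype at 5 weeks, 344 at 25 weeks, 32 for genotype by age, 1441 and 2263 for age in WT and Col6a2-/- and 258 for sex. Without a filter there were 343 for genotype at 25 weeks, 115 for genotype by age and 5 for genotype by sex, and at 0.1 TPM with a pseudocount of 0.1 there were 918 for genotype at 25 weeks and 115 for genotype by age. Size factors gave 1384 for genotype at 25 weeks, 127 for genotype by age and 803 for sex, and quantile normalization 140 for genotype by age and 817 for sex. Array weights gave 1967 for genotype at 25 weeks, 241 for genotype by age, 4166 for age in WT, 925 for sex and 0 for genotype by sex. Leaving out single libraries gave 2207 to 4749 for genotype at 5 weeks, 270 to 983 at 25 weeks, 49 to 229 for genotype by age and 327 to 693 for sex. The causes were not tested.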
